A study of Neurospora crassa with 6 samples.

Results

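Heat shock protein genes were followed in cultures of Neurospora crassa, a filamentous fungus, kept in darkness or under light of 1000 lux or 5000 lux. The genes are the 5 rows named hsp80, hsp60, hsp30, hsp20_family and hsp30-like_protein, chosen by name out of 10559 genes measured. The choice was made with earlier results of these data known. All 5 had enough expression to be tested (at least 1 RPKM in at least 2 libraries), as did 7841 genes in all. RPKM, the unit of the table, is reads scaled by gene length and by library depth, so levels can be compared between genes.

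All 6 libraries came from 1 genotype, labelled delta_cry, delta_vvd, delta_wc-1, which lacks by its label the cryptochrome, the photoreceptor VIVID and the photoreceptor White Collar-1. The dark group, the 1000 lux group and the 5000 lux group had 2 libraries each and shared this genotype, so there was no strain with the 3 genes intact. Cultures were raised on minimal slants and then kept in 2% glucose medium for 45 min under the light condition of their group. The labels name no heat treatment, and culture temperature was not among the labels used here. The polyadenylated RNA was sequenced. Whether replicate libraries are independent cultures is not stated. If they are not, each p-value reflects technical spread only.

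Heat shock proteins are chaperones, which help other proteins to fold and keep unfolded ones from clumping. Many are made at a steady level in growing cells and more strongly after heat or other stress, under heat shock transcription factors. HSP80 is an N. crassa member of the HSP90 family, which matures signalling proteins such as kinases. HSP60 is the chaperonin inside mitochondria, where newly imported proteins fold within its ring. HSP30 is a small heat shock protein of the alpha-crystallin family, known for strong induction by heat, and proteins of the HSP20 family belong to that same class of small ATP-independent chaperones.

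The rows hsp20_family and hsp30-like_protein carry a name only. Neither was matched to a locus tag, whereas hsp80 (NCU04142), hsp60 (NCU01589) and hsp30 (NCU09364) were. In budding yeast the name HSP30 belongs to an unrelated membrane protein, and the table does not say which kind of protein hsp30-like_protein is, so no role is given to it here. In the reference annotation hsp30 overlaps NCU10352, and their reads could not be told apart because the strand setting of the counting is not given in the sources used here. For the rows without a locus tag, overlaps and near-identical copies were not checked.

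The libraries held 16457495 to 21625765 reads on genes. Genes labelled as deleted were above 0 in every library, with 6.31 to 9.04 RPKM for wc-1, 1.95 to 3.44 for vvd and 1.59 to 2.56 for cry, and where within each gene these reads fell is not recorded in the table. Hyphae were marked by hex-1, the gene of the Woronin body protein that plugs hyphal septa, at 1035 to 1220 RPKM. Of the 5 conidial markers, eas was at 70.6 to 231 RPKM, con-8 at 11.1 to 29.6, con-10 at 0.681 to 3.18, and con-6 and con-13 stayed under 1 RPKM in all libraries. Summed over the 5, the conidial markers came to 194 to 237 RPKM in darkness, 104 to 109 at 1000 lux and 183 to 254 at 5000 lux. Most of each sum was eas, whose mean was lowest at 1000 lux (73.3 RPKM). The means of con-8 and con-10 were instead highest there, at 29.5 and 2.99 RPKM.

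The 5 genes ranged from levels below the median gene to among the most abundant transcripts. In darkness hsp80 lay above 98.1% of all genes by its mean RPKM, hsp30-like_protein above 95.5%, hsp60 slightly lower than that, hsp30 above 48.7% and hsp20_family above 37.9%. The median gene had 7.49 to 8.24 RPKM, depending on the library. Together the 5 genes summed to 585 and 591 RPKM in the dark libraries, 576 and 586 RPKM in the 1000 lux libraries, and 467 and 511 RPKM in the 5000 lux libraries.

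hsp80 was the most abundant of the 5 in darkness, with 329 and 327 RPKM in the dark libraries. Its level was 224 and 244 RPKM at 1000 lux and 231 and 232 RPKM at 5000 lux. Both dark libraries were above all 4 light libraries, and the light groups overlapped.

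hsp60 had 117 and 121 RPKM in darkness, 95.4 and 99.7 RPKM at 1000 lux, and 105 and 106 RPKM at 5000 lux. The dark libraries were the highest and the 1000 lux libraries the lowest, and none of the 3 groups overlapped. The whole spread of this mitochondrial chaperonin gene was small, from 95.4 to 121 RPKM.

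hsp30 was a transcript of low to middle level, below the median gene of its library in all 6 libraries. It had 7.12 and 7.43 RPKM in darkness (243 and 318 reads), 4.86 and 5.50 RPKM at 1000 lux (168 and 216 reads), and 4.84 and 4.69 RPKM at 5000 lux (190 and 152 reads). As for hsp80, both dark libraries were above all light libraries; the 1000 lux libraries were slightly above those at 5000 lux.

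hsp20_family lay below hsp30 in darkness, with 4.68 and 2.84 RPKM, and its highest values were at 1000 lux, with 10.5 and 11.3 RPKM. At 5000 lux it had 4.19 and 6.40 RPKM. The 1000 lux libraries stood above the other 4, and the 5000 lux and dark groups overlapped. These values rest on 79 to 288 reads per library: 104 reads in dark replicate 1 (exact 95% Poisson interval 85.0 to 126), 79 in dark replicate 2 (62.5 to 98.5), 236 (207 to 268) and 288 (256 to 323) at 1000 lux, and 107 (87.7 to 129) and 135 (113 to 160) at 5000 lux. The intervals cover counting error only. Converted to RPKM, those of the dark libraries ran from 3.83 to 5.68 and from 2.25 to 3.54 and did not overlap, so these replicates differed by more than counting error.

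hsp30-like_protein had 133 and 126 RPKM in darkness, rose to 241 and 226 RPKM at 1000 lux, and had 123 and 162 RPKM at 5000 lux. Again both 1000 lux libraries were above the other 4, and the 5000 lux libraries lay on either side of the dark ones. The gap between the 5000 lux libraries, with replicate 2 the higher, was also seen for hsp20_family. Both of these rows are therefore less certain at 5000 lux than hsp80, hsp60 and hsp30, whose 5000 lux libraries differed little.

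**Figure D1:**
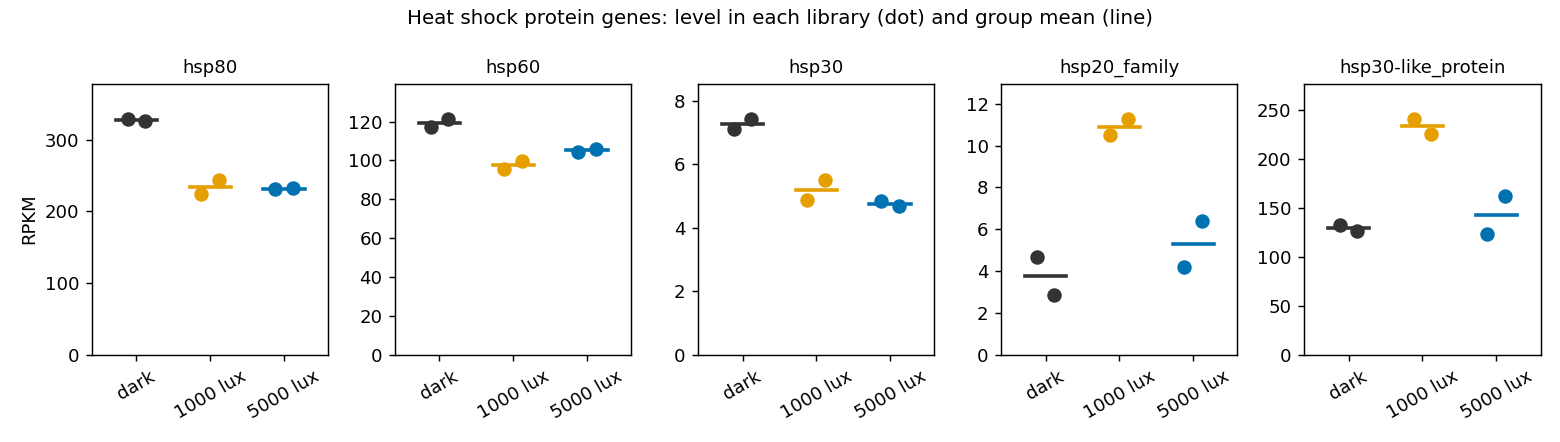
RPKM (vertical axes, each from 0) of the 5 heat shock protein genes in darkness, at 1000 lux and at 5000 lux; each dot is a library and each line the mean of the 2 libraries of a group. hsp80 and hsp30 are highest in the dark libraries, hsp60 is highest in darkness and lowest at 1000 lux, and hsp20_family and hsp30-like_protein are highest at 1000 lux.

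The order of the levels changed with the light. In darkness it ran from hsp80 through hsp30-like_protein, hsp60 and hsp30 down to hsp20_family, and hsp30-like_protein at 126 to 133 RPKM was only just above hsp60 at 117 to 121. At 1000 lux hsp30-like_protein and hsp80 overlapped, and hsp20_family lay above hsp30. At 5000 lux the dark order returned for the 3 most abundant genes, while hsp20_family and hsp30 overlapped.

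Within each library the ratio of hsp30-like_protein to hsp80, in RPKM, was 0.402 and 0.386 in the dark libraries, 1.07 and 0.927 in those at 1000 lux, and 0.532 and 0.696 in those at 5000 lux. These groups did not overlap. The ratio of hsp20_family to hsp30 was 0.658 and 0.382 in the dark libraries, 2.16 and 2.05 in those at 1000 lux, and 0.866 and 1.37 at 5000 lux, again without overlap. The ratio of hsp80 to hsp60 moved less, from 2.81 and 2.69 in darkness to 2.35 and 2.44 at 1000 lux and 2.21 and 2.20 at 5000 lux. These ratios are descriptions of pairs chosen after their values were seen.

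The first comparison asks which of these transcripts differed between 1000 lux and darkness. All 5 did at a limma adjusted p under 0.05, in both directions: 2 were higher (hsp20_family and hsp30-like_protein) and 3 were lower (hsp80, hsp60 and hsp30). Over all 7841 genes tested, 9.13% were called higher and 7.82% lower in this comparison (16.9% either way), and the groups did not overlap in 58.8%. Because the 5 genes were chosen with earlier results known, their counts here and below are no test against such shares. The median log2 fold change was -0.29 over the 5 genes and 0.00078 over all genes tested. Fold changes here are differences of log2(RPKM + 1), with the standard error (SE) of the fit and 2 libraries per group, and the adjustment runs over all genes tested.

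hsp20_family had the largest change of the 5, from 3.76 ± 1.31 RPKM in darkness to 10.9 ± 0.548 at 1000 lux (mean ± SD, n = 2, as in all such pairs here). On the log2 scale this was a rise of 1.35 (SE 0.21, limma adjusted p = 0.0027), which ranked 21 from the top among the 7841 genes tested. At so low a level the pseudocount matters: the log2 fold change was 1.55 with 0.1 RPKM and 0.87 with 5 RPKM added in place of 1. The call was kept with both.

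hsp30-like_protein went from 129 ± 4.59 to 233 ± 10.6 RPKM, 1.81 times the dark mean. Its log2 fold change of 0.85 (SE 0.12, limma adjusted p = 0.00182) ranked 99 from the top. Unlike hsp20_family it was abundant, with 6087 to 11933 reads per library, so that counting error was small beside the difference. Both increases kept their calls whichever of the 6 libraries was dropped, at log2 fold changes of 1.06 to 1.63 for hsp20_family and 0.80 to 0.89 for hsp30-like_protein.

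hsp80, an HSP90-family gene, went the other way, from 328 ± 1.70 to 234 ± 13.8 RPKM. This is a log2 fold change of -0.49 (SE 0.08, limma adjusted p = 0.003), and the call was kept without each library in turn.

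The decreases of hsp60 and hsp30 were less secure. hsp60 went from 119 ± 3.0 to 97.6 ± 3.03 RPKM, a log2 fold change of -0.29 (SE 0.08, limma adjusted p = 0.0314). hsp30 went from 7.28 ± 0.221 to 5.18 ± 0.452 RPKM, a log2 fold change of -0.42 (SE 0.12, limma adjusted p = 0.0406). Each of these calls was lost without any 1 of the 6 libraries, where the log2 fold changes were -0.32 to -0.26 for hsp60 and -0.50 to -0.35 for hsp30, with adjusted p from 0.0514 to 0.195 and from 0.068 to 0.251. Both were also lost with only the dark and 1000 lux libraries in the fit (adjusted p 0.0589 and 0.0652), hsp60 without the intensity trend (0.0802), and hsp30 without a low-value filter (0.0687), with library weights (0.056) and by limma voom on recovered reads (0.072). The hsp30 log2 fold change was -0.48 with a pseudocount of 0.1 RPKM and -0.27 with 5 RPKM.

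**Figure D2:**
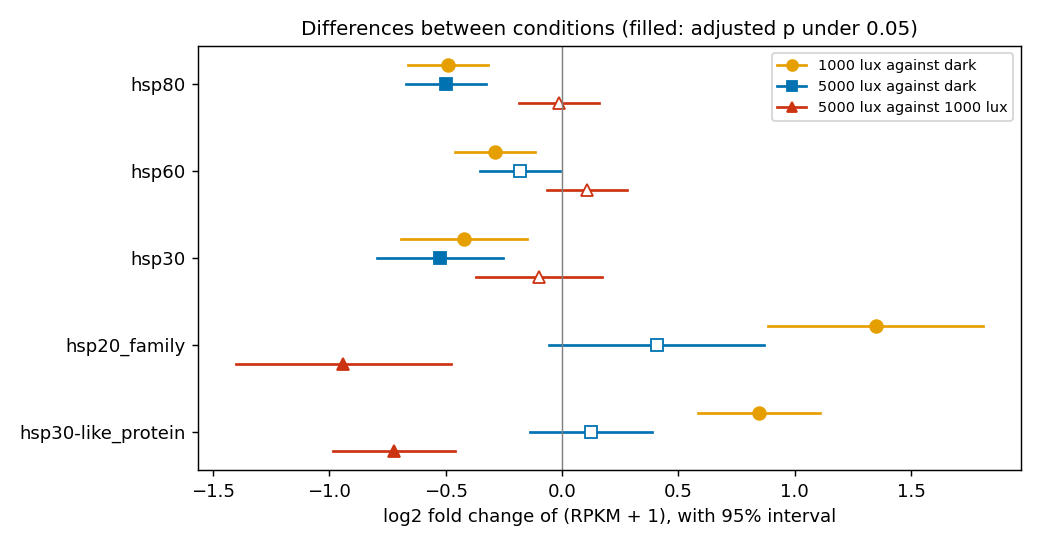
Log2 fold change of RPKM + 1 (horizontal axis) with its 95% interval from the limma fit, for the 5 genes and the 3 comparisons; filled symbols passed an adjusted p under 0.05. At 1000 lux against darkness hsp20_family and hsp30-like_protein lie to the right of 0 at 1.35 and 0.85 and the other 3 to the left, while at 5000 lux against darkness the calls are those of hsp80 and hsp30, at -0.50 and -0.52.

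The second comparison sets 5000 lux against the same dark libraries, so the values of both light comparisons move together with any chance deviation in darkness. Here 2 of the 5 genes were lower, hsp80 and hsp30, and 0 were higher by limma or by limma voom at an adjusted p under 0.05. At an unadjusted p under 0.05, 0 were higher as well, and hsp60 was lower too (limma unadjusted p = 0.0422). Over all genes tested 2.92% were called lower and 6.7% higher (9.62% either way), and the groups did not overlap in 52.9%.

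At 5000 lux hsp80 stood at 232 ± 1.11 RPKM against 328 ± 1.70 in darkness, a log2 fold change of -0.50 (SE 0.08, limma adjusted p = 0.00478). The mean in darkness was 1.42 times that at 5000 lux. Leaving out 5000 lux replicate 1 ended the call, at -0.50 with an adjusted p of 0.0515; without each of the other 5 libraries it was kept.

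For hsp30 the mean was 4.76 ± 0.105 RPKM at 5000 lux, a log2 fold change of -0.52 from darkness (SE 0.12, limma adjusted p = 0.025). Among the 7841 genes tested it ranked 190 from the bottom, and hsp80 ranked 225. With 0.1 RPKM added in place of 1, the hsp30 log2 fold change was -0.60. The call was lost without either dark library and without either 5000 lux library, at -0.55 to -0.50, and without a low-value filter (adjusted p 0.0555), and the value was -0.33 with a pseudocount of 5 RPKM.

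The remaining 3 genes did not pass the test at 5000 lux. hsp60 had 105 ± 0.801 RPKM, a log2 fold change of -0.18 with a 95% interval of -0.35 to -0.0077 (limma adjusted p = 0.182). hsp30-like_protein had 142 ± 27.5 RPKM, a log2 fold change of 0.12 with an interval of -0.14 to 0.39 (limma adjusted p = 0.572), and its sign turned without 5000 lux replicate 2, at -0.073. hsp20_family had 5.29 ± 1.56 RPKM, a log2 fold change of 0.41 with an interval of -0.055 to 0.87 (limma adjusted p = 0.258); without dark replicate 1 the value was 0.69, without 5000 lux replicate 1 it was 0.66, without dark replicate 2 it was 0.12 and without 5000 lux replicate 2 it was 0.15.

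The third comparison sets the light intensities against each other and shares the 1000 lux libraries with the first one. Of the 5 genes 2 were lower at 5000 than at 1000 lux, hsp20_family and hsp30-like_protein, and 0 were higher by limma or limma voom, also at an unadjusted p under 0.05. Over all genes tested 1.36% were called lower and 1.66% higher (3.02% either way), and the groups did not overlap in 48.6%.

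hsp30-like_protein fell from 233 ± 10.6 to 142 ± 27.5 RPKM, a log2 fold change of -0.72 (SE 0.12, limma adjusted p = 0.0117). hsp20_family fell from 10.9 ± 0.548 to 5.29 ± 1.56 RPKM, a log2 fold change of -0.94 (SE 0.21, limma adjusted p = 0.0429). Both calls were lost on dropping either 1000 lux library (replicate 1, then 2) or replicate 1 at 5000 lux, where hsp30-like_protein was at -0.68, -0.77 and -0.53 and hsp20_family at -0.99, -0.89 and -0.68. They were also lost without a low-value filter (adjusted p 0.0526 and 0.133) and without the intensity trend (0.0784 and 0.113). With 0.1 RPKM added in place of 1, hsp20_family was at -1.06 (limma adjusted p = 0.0498). With 5 RPKM added it was at -0.63 (limma adjusted p = 0.0276).

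For the other 3 genes the light intensities were not told apart. hsp80 differed by -0.01 on the log2 scale with a 95% interval of -0.18 to 0.16, hsp60 by 0.11 with an interval of -0.065 to 0.28, and hsp30 by -0.10 with an interval of -0.37 to 0.17 (limma adjusted p = 0.965, 0.577 and 0.765). The 95% interval of hsp80 reached 0.18 in size, and larger changes are not excluded.

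**Figure D3:**
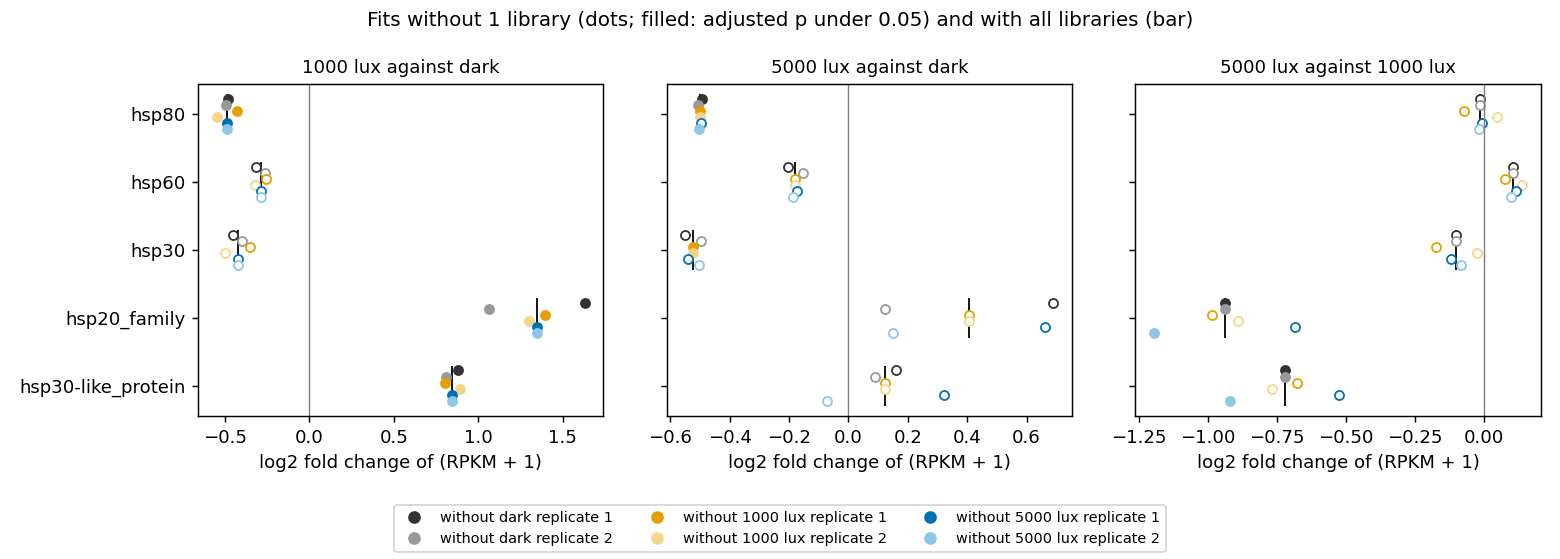
Log2 fold change of RPKM + 1 (horizontal axes) of the 5 genes in the 3 comparisons, with all 6 libraries (black bar) and without each library in turn (dots, filled where the adjusted p was under 0.05). The increases of hsp20_family and hsp30-like_protein and the decrease of hsp80 at 1000 lux stay filled throughout, whereas hsp60 and hsp30 at 1000 lux are open throughout.

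Related genes were read from lists of chaperones, heat shock factors, cochaperones and the proteasome. Among 8 large chaperones, all tested, 0 rose and 1 fell from darkness to 1000 lux, and 1 was higher and 0 lower at 5000 lux. Over all genes tested 9.13% were called higher and 7.82% lower in the first of these comparisons, with 6.7% higher and 2.92% lower in the second. The median log2 fold change of these 8 was -0.089 and -0.018, against 0.00078 and 0.023 over all genes tested. Between the light intensities 0 of 8 were called by limma.

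The lower one at 1000 lux was hsp78, in yeast a mitochondrial chaperone that dissolves aggregates. It had 18.2 and 17.7 RPKM in darkness, then 12.8 and 12.5 RPKM at 1000 lux and, at 5000 lux, 13.2 and 15.2 RPKM. Both dark libraries were above all 4 light libraries. At 1000 lux this gave a log2 fold change of -0.47 (SE 0.10, limma adjusted p = 0.0128), a call lost without either 1000 lux library; at 5000 lux it was -0.32 with an adjusted p of 0.0782.

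hsp70-2, the higher one at 5000 lux, carries an HSP70-family symbol, the family that binds unfolded stretches of proteins. It had 309 and 353 RPKM in darkness, then 393 and 410 RPKM at 1000 lux and, at 5000 lux, 442 and 425 RPKM. Here the dark libraries were the lowest, and the 3 groups did not overlap. It rose by 0.39 at 5000 lux (SE 0.09, limma adjusted p = 0.0202), lost without dark replicate 1, either 5000 lux library or the intensity trend (adjusted p 0.0743). At 1000 lux the log2 fold change was 0.28 and did not pass (limma adjusted p = 0.0501).

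hsp70-1, a major HSP70 gene, was the most abundant of the large chaperones, with 785 ± 48.1 RPKM in darkness, 668 ± 39.6 RPKM at 1000 lux and 686 ± 18.6 at 5000 lux. Its log2 fold changes of -0.23 and -0.19 from darkness did not pass the test (limma adjusted p = 0.0812 and 0.179). hsp88, of the HSP110 family, had log2 fold changes of 0.18 and 0.25, with adjusted p of 0.152 and 0.0768. grp78, the HSP70 of the endoplasmic reticulum, was at -0.069 and 0.014, hsp70-5 at -0.11 and 0.098, and hsp90a at -0.036 and -0.05. The last was listed by the start of its symbol, and which kind of protein it encodes was not checked. hsp98, the counterpart of the yeast disaggregase HSP104, was at -0.17 and -0.19; none of these passed.

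Of the 2 heat shock factor genes, which encode the transcription factors of the heat shock response, 1 was lower at 1000 lux. Over all genes tested 7.82% were called lower there. The gene was hsf-1 (NCU08512). It had 18.2 and 18.0 RPKM in darkness, then 13.7 and 14.5 RPKM at 1000 lux and, at 5000 lux, 17.8 and 17.5 RPKM. The 1000 lux libraries were the lowest, and those at 5000 lux lay just under the dark ones. Its log2 fold change at 1000 lux was -0.34 (SE 0.09, limma adjusted p = 0.0342), a call that ended whichever library was dropped (adjusted p 0.0649 to 0.202). The call also ended without the intensity trend (limma adjusted p = 0.0528) and with only the groups compared in the fit (0.0657). In addition hsf-1 overlaps NCU14141 and NCU10388 in the reference. hsf-2 had log2 fold changes of -0.11 at 1000 lux and 0.14 at 5000 lux and did not pass in either.

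**Figure D4:**
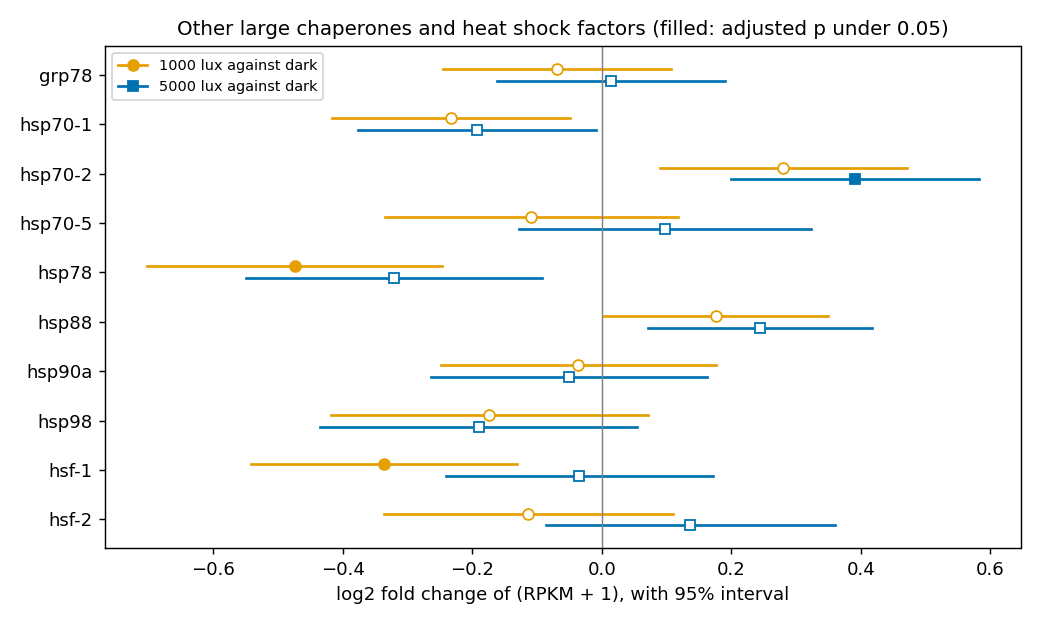
Log2 fold change of RPKM + 1 (horizontal axis) with its 95% interval for 8 large chaperone genes and 2 heat shock factor genes, at 1000 lux and at 5000 lux against darkness; filled symbols passed an adjusted p under 0.05. hsp78 at -0.47 and hsf-1 at -0.34 are filled at 1000 lux and hsp70-2 at 0.39 is filled at 5000 lux, and the other symbols are open.

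Of 4 cochaperone and prolyl isomerase genes, 1 was higher and 0 lower at each intensity against darkness, fkr-4 in both cases. Over all genes tested 9.13% were called higher at 1000 lux and 6.7% at 5000 lux. The median log2 fold change of the 4 was 0.12 and -0.040, against 0.00078 and 0.023 over all genes tested. fkr-4 had 52.8 and 50.6 RPKM in darkness, then 89.3 and 74.1 RPKM at 1000 lux and, at 5000 lux, 87.0 and 79.7 RPKM. All light libraries were above the dark ones, with log2 fold changes of 0.65 and 0.68 (SE 0.10 for each, and limma adjusted p of 0.00306 and 0.00438). Dropping 5000 lux replicate 1 ended the second call, at an adjusted p of 0.0515. csr-1, the cyclophilin gene, fkr-2 and fkr-3 did not pass. The lists of J-domain proteins and of the chaperonin CCT found 0 genes by symbol.

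The proteasome degrades proteins tagged with ubiquitin. Of 32 proteasome and ubiquitin genes, 1 was higher and 1 lower at 1000 lux, 0 were higher and 1 lower at 5000 lux, and their median log2 fold change was 0.031 and 0.019, against 0.00078 and 0.023 over all genes tested, of which 16.9% and 9.62% were called either way. The lower gene was rpn-4 in both cases, in yeast the transcription factor that drives proteasome genes, with mean levels of 23.0, 12.7 and 15.3 RPKM from darkness to the brightest light (log2 fold changes -0.81 and -0.57, limma adjusted p = 0.00286 and 0.0219). The polyubiquitin gene ubi was the higher one, at 0.25 (limma adjusted p = 0.0484), lost without each library in turn. For rpn-4 the second of these calls ended on dropping dark replicate 1 or 5000 lux replicate 1, without a low-value filter (adjusted p 0.0584) or without the intensity trend (0.0576).

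Genes alike in pattern were found by the distance between log2(RPKM + 1) profiles over the 6 libraries, each centred on its mean. The search ran over 1077 tested genes that had a symbol or a descriptive name rather than a locus tag only. Nearest to hsp80 were gh61-2, at a distance of 0.098, the gene named as similar to Mas5 at 0.153, and leu-1 at 0.174. Mas5 is in yeast a J-domain partner of HSP70 in the cytosol, and the N. crassa gene of that name averaged 66.2, 46.8 and 50.2 RPKM from darkness to the brightest light. For scale, a flat profile lies at 0.577 from hsp80.

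hsp30 shared gh61-2 (0.107) and leu-1 (0.149) with hsp80 as nearest genes, followed by gh18-5 at 0.193, which overlaps ubi::crp-6. The profiles of hsp30 and hsp80 lay only 0.109 apart although their levels differed widely. The 1 RPKM added before the log shrinks changes at low levels such as that of hsp30, and distances with another pseudocount were not computed. hsp60 was nearest to cr-1, fwd-1 and nfh-1 at 0.065, 0.068 and 0.0935; fwd-1 overlaps NCU04541. The flat distances were 0.295 for hsp60 and 0.567 for hsp30. hsp20_family was nearest to lyz, gh28-1 and con-10 at 0.542 to 0.603 from a flat distance of 1.49, and hsp30-like_protein to the opsin gene nop-1 at 0.219, gh3-1 at 0.316 and sod-2, a superoxide dismutase gene, at 0.381 from a flat distance of 0.96. nop-1 was low, with mean levels of 0.847, 2.00 and 1.06 RPKM from darkness to the brightest light, and gh28-1 overlaps NCU02368. From hsp20_family to hsp30-like_protein the distance was 0.631, and from either of them to hsp80, hsp60 or hsp30 it was 1.21 to 1.91.

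The conidial markers did not move in 1 direction beside these changes. At 1000 lux against darkness eas, the conidial hydrophobin gene, was lower at -1.38 (limma adjusted p = 0.000459) while con-10 was higher at 0.96 (limma adjusted p = 0.0155), and hex-1 differed by 0.01 on the log2 scale. Against 1000 lux, eas was higher at 5000 lux at 1.42 and con-8 lower at -0.96. The part of these markers in the changes of hsp20_family and hsp30-like_protein was not tested.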

How the data were processed

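Per the submitters' processing notes, CASAVA 1.8 and HISAT (no version) were used. Their roles, the genome build, the annotation and the counting tool are not given in the sources consulted. What the authors deposited is a single table of RPKM, 1 column for each library. For 10526 of its 10559 genes an entry was found in the NC12 reference gene table, used for names and overlaps only. Sequences were not used here.

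A gene was tested if 2 or more libraries reached 1 RPKM. The model was limma 3.58.1 (R 4.3.3), with the variance trended on intensity, applied to log2 of RPKM plus 1. The 3 groups entered together (3 residual and 6.87 prior degrees of freedom), and Benjamini-Hochberg adjustment ran over the 7841 genes. The procedure was also run on simulated data with the same normal spread for every gene, which does not test it at low counts. Reads were recovered from the steps between RPKM values: within 0.005 reads plus a relative 3e-07, all 9773 genes above 0 came out whole, with library totals of 21418640 to 28255299. They entered limma voom as an alternative.

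The 5 genes and the lists were chosen with earlier results of these data known. Named beyond the 5 were all large chaperones and heat shock factors, up to 4 called genes from each other list, and for each of the 5 the 3 nearest profiles. Symbol starts also caught pre-1 and pre-2 (pheromone receptors) and a ubiquinol-cytochrome c reductase gene, which were dropped, the last after its values had been seen. Alternatives were the pseudocount, filters, scalings, variance settings, library weights, the groups in the fit, a replicate block, voom and leaving out each library. Figures used Python 3.11.15, pandas 2.3.3 and matplotlib 3.10.9.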

Additional observations from a re-analysis of the deposited data

Results flagged for a closer look

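The effect of light on hsp20_family differed between the intensities: the change at 5000 lux against darkness minus the change at 1000 lux against darkness was -0.94 on the log2 scale, by the limma test of 5000 against 1000 lux (adjusted p = 0.0429). The same difference was -0.72 for hsp30-like_protein (limma adjusted p = 0.0117). In both genes the 2 libraries at 1000 lux were the highest of the 6. Both calls were lost without a low-value filter (adjusted p 0.133 for hsp20_family and 0.0526 for hsp30-like_protein), without the intensity trend (0.113 and 0.0784) and in 3 of the 6 fits without 1 library.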

How the results depend on the processing

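Alternatives were 13 changes of setting and the 6 fits without 1 library. Each gave 2 genes rising from darkness to 1000 lux, and 0 rising in the other comparisons. The number lower at 1000 lux, 3 with all libraries, was 1 with only the groups compared and 1 in each fit without a single library. It was 2 without a low-value filter, without the intensity trend, with library weights and by limma voom. The number lower at 5000 lux against darkness, 2 in all, was 1 without a low-value filter and 0 to 1 without single dark or 5000 lux libraries (0 to 2 over all 6). The number lower at 5000 against 1000 lux, 2 in all, was 0 without a low-value filter, 0 without the intensity trend and 0 to 2 without single libraries. With the replicate number as a block it was 1; hsp20_family was lost at an adjusted p of 0.0606, and the block changed no other call of the 5 genes. The numbers are not known to pair the libraries: deviations of same-numbered libraries correlated at 0.0282, -0.0872 and 0.0515 over genes. The sign turned for hsp80 between the light intensities under quantile normalization (0.0030) and without 1000 lux replicate 2 (0.048, range -0.072 to 0.048), and for hsp30-like_protein at 5000 lux against darkness without 5000 lux replicate 2 (range -0.073 to 0.32); none of these values was called. The causes were not tested, and a fit that leaves 1 library in a group has fewer samples and assumes that it varies like the others. Depth limits hsp20_family and hsp30 most, at 79 to 318 reads per library.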
